A study of Mus musculus with 24 samples.

Results

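Gene expression was compared between marginal zone (MZ) B cells of C57BL/6/J (B6) mice and the NOD/ShiLtJ (NOD) arrays whose transcripts resembled them, which were the NOD arrays titled T1. There were 2 arrays of B6 MZ and 2 of the NOD cells labelled T1, that is 4 of the 24 arrays of the series. The pair was chosen on measured values, because Cr2 was high and Cd93 and Fcer2a were low in both. The matching therefore rests on transcripts only, and no surface protein value entered it. The label of the NOD cells and these transcripts go against each other, so the group is called the NOD arrays labelled T1 throughout.

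All mice were females aged 7 weeks with no stated treatment, and both strains are inbred. NOD mice develop autoimmune diabetes spontaneously and B6 mice do not. Splenocytes of 8 mice of a strain were pooled, depleted of cells carrying CD3 or CD11b, and sorted by staining for IgM, CD21/35, CD24, B220, CD93 and CD23 into 6 groups, which are labelled MZ, T2MZ, FO, T3, T2FO and T1. The experiment was repeated independently. Each array of a group thus stands for a separate pool of mice, and differences between individual mice cannot be seen. With 2 arrays per group the number of arrays limits the precision of every value.

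Marginal zone B cells sit beside the blood sinus of the spleen and respond early to antigens carried by blood. They carry much CD21 (encoded by Cr2), which binds complement-coated antigen, and little CD23 (Fcer2a). Their development needs Notch2 signalling, and S1pr3 encodes a sphingosine 1-phosphate receptor that takes part in their placement. Cells at the T1 stage have just left the bone marrow and are known for high CD93 and low CD21. An enlarged marginal zone compartment is a known feature of NOD mice.

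The deposited values are log2 values centred on the median of each probe set over the 24 arrays. A value of 0 is that median, and only differences between arrays can be read. Cr2 was 1.23 and 0.49 in the 2 B6 MZ arrays and 1.24 and 1.16 in the NOD arrays labelled T1. By group mean these were the highest of their strains, although B6 MZ replicate 2 lay below both B6 T2MZ arrays (0.58 and 0.59). B6 T1 had -1.83 and -1.62. Cd93 was -0.76 and -0.83 in B6 MZ and -2.04 and -2.14 in the NOD arrays labelled T1, the lowest group of each strain. Fcer2a was likewise lowest in these groups, at -2.46 and -2.59 in B6 MZ and -3.11 and -2.85 in NOD. S1pr3 was 2.79 and 2.96 in B6 MZ and 3.67 and 3.77 in NOD, again the highest group of each strain. Among B6 groups the next highest for S1pr3 was T2MZ, at 1.02 ± 0.10 (SD, n = 2), and among NOD groups it was the one labelled MZ, at 1.88 ± 0.55. Tlr3, the endosomal receptor for double-stranded RNA, had 3.67 and 3.77 in B6 MZ and 4.83 and 4.68 in the NOD arrays labelled T1. It was seen together with the markers when the pair was chosen. These transcripts describe the choice. They were part of the fit of all genes, but were not counted as tested in the gene lists below.

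**Figure D1:**
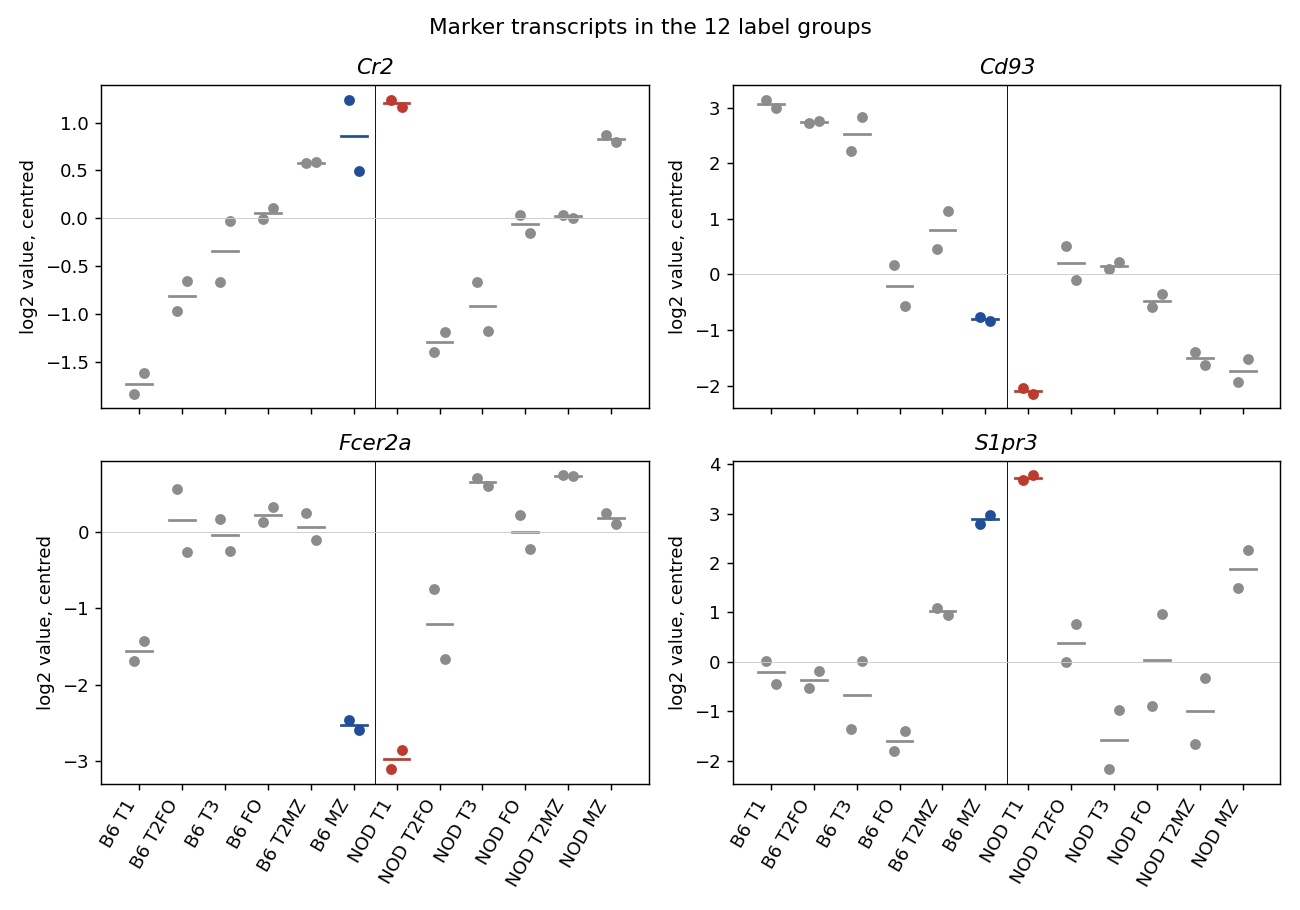
Each panel shows 1 transcript in the 12 groups, with the 2 arrays of a group as points and their mean as a line, on the centred log2 scale. B6 MZ (blue) and the NOD arrays labelled T1 (red) have the highest Cr2 and S1pr3 and the lowest Cd93 and Fcer2a of their own strain.

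Values of the other transcripts of sorted surface proteins did not serve as a check. Ighm, which encodes the IgM heavy chain, was -0.89 and 1.27 in B6 MZ and -2.05 and 2.91 in the NOD arrays labelled T1, so the arrays of a group lay further apart than the group means. Cd24a was 0.50 and -0.72 in B6 MZ and 0.11 and -0.50 in NOD, and Ptprc, which encodes CD45, was 0.19 and -0.50 against 0.76 and 0.83. None of these 3 genes passed the test in the pair, although Ptprc did with the 5′ control as covariate (1.27, adjusted p = 0.0282).

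The match reached beyond the markers, in the sense that the NOD arrays labelled T1 had fewer genes called different from B6 MZ than from any other B6 group. A gene was called where its adjusted p in limma was under 0.05 over all 18193 genes. Against B6 MZ 280 genes (1.54%) were called, against B6 T2MZ 491, against FO 725, against T3 850, against T2FO 942, and against the B6 group with the same label, T1, 1106. These 6 comparisons share the NOD arrays, and the order was a description that the choice of the pair favours. Over all genes, after the mean of each strain was removed, the NOD arrays labelled T1 correlated with B6 MZ at r = 0.587 and with B6 T1 at r = -0.43. Without the 5 marker genes named above, the former value was 0.582. These correlations run across 18193 genes, which are not independent replicates and share the arrays. Without replicate 1 of B6 T2MZ, 243 genes were called against that group, then an arm of 1 array, and 302 against B6 MZ. Without B6 MZ replicate 2, leaving that arm with 1 array, 129 were called against B6 MZ and 543 against B6 T2MZ.

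Some differences between the arrays themselves bear on the values that follow. The root mean square spread between replicates was 0.479 in B6 MZ and 0.268 in the NOD arrays labelled T1 on the log2 scale. The control probe sets at the 5′ end of beta-actin, which fall when RNA is broken or copied short, gave -3.47 in B6 MZ replicate 1, 0.42 in replicate 2, and 0.37 and 0.56 in the NOD arrays labelled T1. Over the series, 5′ actin ran from -4.04 to 0.47 in B6 and from -0.54 to 0.79 in NOD. Apart from replicate 2 of FO and of MZ, every B6 array lay below the lowest NOD array. In the other subsets 5′ signal and strain therefore largely went together and cannot be told apart. Macrophage transcripts were high in B6 MZ replicate 2. Csf1r, the receptor for macrophage colony-stimulating factor, was -0.18 in replicate 1 and 3.96 in replicate 2 of B6 MZ, and -1.08 and -0.21 in NOD. The other probe sets of Csf1r gave 1.2 and 0.35 in B6 MZ replicate 2, so the size depends on the probe set. Vcam1 was -0.95 and 4.59 against -0.91 and -0.30, and Lyz2, which encodes lysozyme, was -0.10 and 2.94 against -0.01 and 0.03. Summed over the 11 myeloid markers the values were -2.88 and 20.2 in B6 MZ and -3.01 and -1.02 in NOD, and 0 of the 11 were called. Csf1r was called with a replicate block (-2.54, adjusted p = 0.0287), and Lyz2 with the 5′ control as covariate (adjusted p = 0.0344) and without B6 MZ replicate 1 (-2.93, adjusted p = 0.00101). Because values are centred, no marker can be said to be at 0. The summed T cell markers were 0.11 and 3.0 in B6 MZ and -1.95 and 2.70 in NOD over 6 genes, with 0 called. Plasma cell and secretion genes (24 genes) summed to -2.06 and 1.96 against 1.60 and -1.79, again with 0 called. No member of the dendritic cell, NK cell or erythroid and platelet lists was called either. The part of the 5′ signal and of these markers in the results was not tested.

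**Figure D2:**
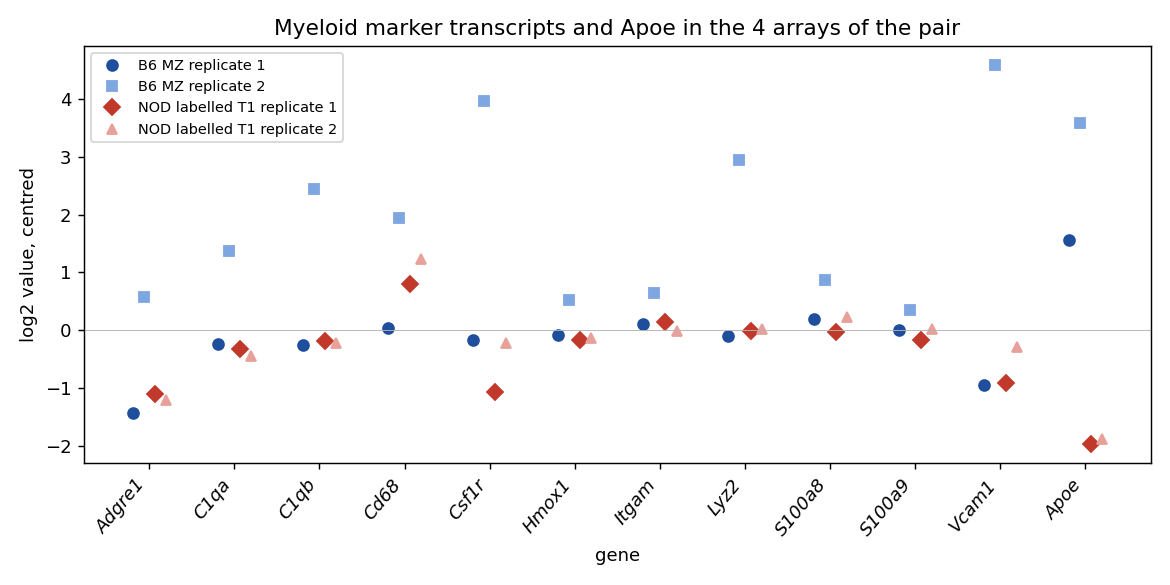
Points are the centred log2 values of the 11 myeloid markers and of Apoe in the 4 arrays. B6 MZ replicate 2 stands above the other 3 arrays for Csf1r, Vcam1, Lyz2 and C1qb, while both B6 MZ arrays stand above both NOD arrays for Apoe.

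What sets each group apart from the other 5 groups of its own strain was then compared, since these 2 comparisons share no array. Of 205 genes called higher in B6 MZ than in other B6 subsets (1.13% of genes), 138 were also called higher in the NOD arrays labelled T1 than in other NOD subsets, which is 67.3% of the B6 list and 47.1% of the 293 genes (1.61%) of the NOD list. Of 143 genes called lower in B6 MZ (0.786%), 70 were called lower in NOD too, 49.0% of the B6 list and 43.2% of the 162 genes (0.89%) of the NOD list. In all, 348 genes (1.91%) were called in B6 MZ (654 with a replicate block) and 455 (2.5%) in the NOD arrays labelled T1, none in opposite directions. Of the 138 genes 15 were also called between the strains in the pair, 13 higher and 2 lower in NOD, and of the 70 genes 11, of which 2 were higher and 9 lower. Without B6 MZ replicate 2 the 348 became 123, and the 455 became 138 without replicate 1 and 167 without replicate 2 of the NOD arrays labelled T1. The median difference of the 205 genes was 1.26 in B6 and 1.11 in NOD. The marker genes of the choice are counted here, Cr2, S1pr3 and Tlr3 among the 138 and Cd93 and Fcer2a among the 70. Since the pair was chosen for its likeness, this overlap is a description and supports nothing by itself.

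Tsga13, a gene best known from testis, was 5.23 and 3.64 in B6 MZ and 5.22 and 5.15 in the NOD arrays labelled T1, against at most 2.04 in other B6 and 3.56 in other NOD arrays. It stood 4.29 above the other B6 groups and 4.39 above the other NOD groups. Ffar2, a receptor for short-chain fatty acids, stood 3.57 above the other groups in B6 and 4.22 above them in NOD. Ube2e2, a ubiquitin-conjugating enzyme, stood 3.33 and 3.79 above, and Nebl, an actin-binding protein, 3.68 and 3.91. Low in both were Kctd14 (-3.05 in B6 and -3.21 in NOD), the cyclic nucleotide phosphodiesterase Pde2a (-2.71 and -3.74), the membrane protein Myadm (-2.63 and -3.73), the kinase anchor Akap12 (-2.30 and -2.58) and Serinc5 (-2.14 and -1.67). None of these 9 genes passed the limma test between the strains in the pair, although 3 did under alternatives. These were Myadm with a replicate block (-1.47, adjusted p = 0.0128) and 3 other settings, Pde2a with the 5′ control as covariate (-1.32, adjusted p = 0.00202) and a crossed block, and Ube2e2 with a crossed block (adjusted p = 0.0399). The call of Nebl in B6 was lost without B6 MZ replicate 1 and that of Serinc5 without replicate 2.

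**Figure D3:**
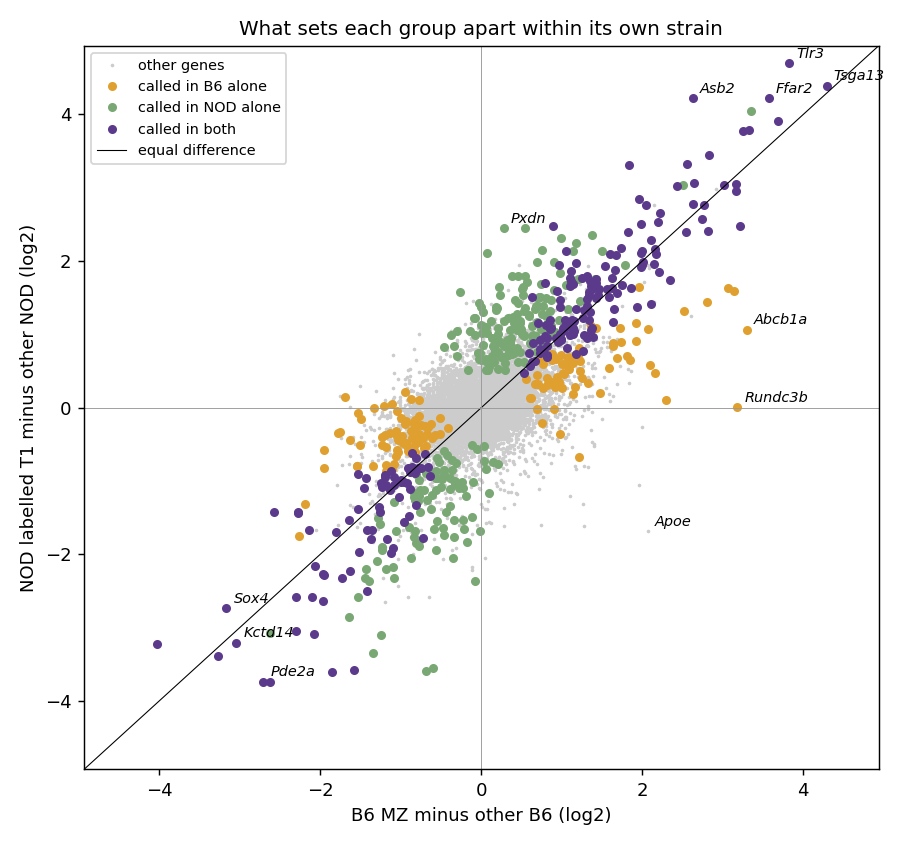
Each point is a gene, placed by its difference between B6 MZ and the other B6 groups (horizontal, log2) and between the NOD arrays labelled T1 and the other NOD groups (vertical, log2). Purple genes were called in both strains and lie in the upper right and lower left, Rundc3b lies to the right (3.18 in B6, 0.01 in NOD), and Pxdn above the centre (0.28 in B6, 2.45 in NOD).

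Of the 13 marginal zone genes listed, 3 had served to choose the pair and were not counted as tested. Of the 10 tested members 1 was called in the pair, Asb2, where 1.54% of all genes were. The median difference over the 13 was 0.46, beside -0.04 over all genes. Asb2, an adaptor of a ubiquitin ligase and a target of Notch, was 2.63 and 2.82 in B6 MZ and 4.98 and 4.56 in NOD. Both NOD arrays stood above both B6 arrays, by 2.04 ± 0.31 (SE, adjusted p = 0.0031). The strain difference of Asb2 in the other subsets was 0.45, and the difference between the 2 was 1.59 ± 0.34, which did not pass the test (adjusted p = 0.201). Without replicate 1 of the NOD arrays labelled T1 the call in the pair was lost (1.83, adjusted p = 0.063). Members with no call included Cd9, a tetraspanin, at 1.79 and 3.24 against 3.40 and 3.18, and Cd1d1, which presents lipids to NKT cells, at 1.40 and 1.63 against 2.40 and 1.90. Myof, a membrane repair protein, was 3.49 and 3.63 in B6 MZ and 2.66 and 2.13 in NOD, the opposite order, with no call (adjusted p = 0.23).

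The remaining 25 members of a 26-gene Notch list were not called in the pair. Notch2 itself lay between -0.02 and 0.09 in the 4 arrays, with a strain difference of 0.04 ± 0.32 (SE). Dtx1, a Notch target of marginal zone cells, was 1.39 and 0.91 against 2.33 and 2.42, with no overlap and no call (adjusted p = 0.15). Hes1, another target, was 1.63 and 0.56 against 1.41 and 1.15, where the arrays overlapped. Follicular genes (0 of 8 tested called, median of the 9 measured -0.26) and immature B cell genes (0 of 10 tested, median of 11 -0.53) gave no call either. In the first of these lists Cd55, a complement inhibitor, was -1.25 and -0.43 in B6 MZ and -2.10 and -2.30 in NOD (-1.36 ± 0.34, adjusted p = 0.0698, and 0.0413 with a replicate block). Sox4, a transcription factor of immature lymphocytes, was -2.03 and -2.12 against -3.83 and -3.27 (-1.47 ± 0.45, adjusted p = 0.165). That value rests on 1 of its 8 probe sets, whose mean was -0.14.

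In the pair, 182 genes were higher in NOD (1% of genes) and 98 lower (0.539%), and with a replicate block 582 were called in all. The 4 arrays of a called gene did not overlap between the groups in any of the 280, which was so for 43.6% of all genes. Cd93, which chose the pair, is 1 of the 98. In the other 10 NOD and 10 B6 arrays 2610 genes were called between the strains (14.3%), 1342 higher in NOD (7.38%) and 1268 lower (6.97%), and 2051 higher and 2716 lower with the 5′ control as covariate. Of the 280, 241 were among the 2610 in the same direction, which is 86.1% of the pair's list and 9.23% of the other. No gene was called in opposite directions. In these other subsets most B6 arrays also had lower 5′ signal than every NOD array, so strain and 5′ signal cannot be told apart there. Of the 39 genes called in the pair alone, 33 did not pass the test of the difference between the strain differences, and 6 did. The 280 fell to 75 without replicate 1 of the NOD arrays labelled T1, to 108 without replicate 2 and to 129 without B6 MZ replicate 2.

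**Figure D4:**
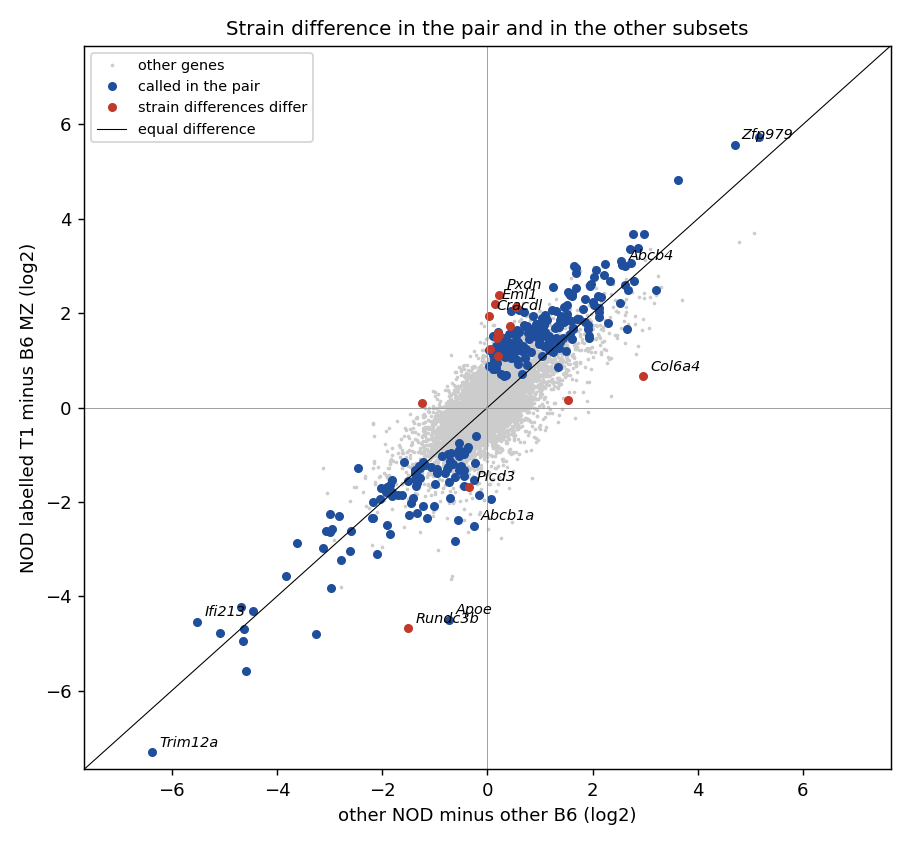
Each point is a gene, placed by its strain difference in the other 5 subsets (horizontal, log2) and in the pair (vertical, log2). Most of the 280 genes called in the pair (blue) follow the line of equal difference, and the 15 genes in red have strain differences that differ from each other by the test.

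The gene furthest apart was Trim12a, a member of the TRIM family of antiviral ubiquitin ligases. Its values were 3.34 and 4.38 in B6 MZ and -3.51 and -3.37 in NOD. The groups did not come near each other, and the difference was -7.30 ± 0.27 (SE, adjusted p = 1.63e-09), beside -6.37 in the other subsets. Its other probe set showed -0.39, so the size depends on the probe set. Ifi213, of the interferon-inducible Ifi200 family, was 2.89 and 1.91 against -1.89 and -2.39 (-4.54 ± 0.38, adjusted p = 7.84e-06), beside -5.52 in the other subsets. Its relative Ifi204 went the other way, with -0.58 and -0.24 in B6 MZ and 1.89 and 2.40 in NOD (2.55 ± 0.29, adjusted p = 0.000232). No other member of the 8 measured Ifi200 genes or of the 9 measured Trim12 and Trim30 genes was called with the probe set used. For Trim12c, a close relative of Trim12a, that probe set gave -1.21, while its other probe set was 2.63 and 2.42 in B6 MZ and -2.93 and -3.59 in NOD (-5.78). Apobec3, a cytidine deaminase that restricts retroviruses, was 1.02 and 1.57 against -1.33 and -1.22 (-2.57 ± 0.41, adjusted p = 0.00423). The call of Apobec3 was lost without B6 MZ replicate 2 (-2.30, adjusted p = 0.064) and without replicate 1 of the NOD arrays labelled T1 (-2.52, adjusted p = 0.061).

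Among interferon response genes 1 of 24 was called in the pair, where 1.54% of all genes were. Between the strains in the other subsets it was 14 of 24, where 14.3% of all genes were. The gene called in the pair was Rsad2, which encodes the antiviral protein viperin, at 2.11 and 1.13 in B6 MZ and -0.36 and -0.97 in NOD (-2.29 ± 0.46, adjusted p = 0.0191). The other probe sets of Rsad2 gave -1.02 and -0.13, so the size depends on the probe set. The list's median difference was -0.25 in the pair and -0.88 in the other subsets. Cmpk2, a mitochondrial kinase, had -0.07 and -1.59 in B6 MZ against -1.80 and -1.67. Usp18, which limits interferon signalling, had -0.06 and -0.42 against -1.29 and -1.53, with no call (adjusted p = 0.67). No member of the list passed the test of the difference between strain differences, so the 2 counts are not shown to differ gene by gene. The call of Rsad2 was lost without B6 MZ replicate 1 (-1.79, adjusted p = 0.13) and without either NOD array.

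Higher in NOD were genes of varied function. Zfp979, a zinc finger protein, was -2.16 and -2.08 in B6 MZ and 3.11 and 3.79 in NOD (5.57 ± 0.40, adjusted p = 2.20e-06). The difference in the other subsets was 4.70. Tmem87a, a membrane protein of the Golgi, was -1.86 and -1.30 against 1.60 and 1.38, and Ptprv, related to receptor tyrosine phosphatases, -0.96 and -1.03 against 1.82 and 1.80. Both were called in every alternative that used arrays outside the pair, with ranges of 2.79 to 3.34 and 2.68 to 2.84. St6galnac2, a sialyltransferase, differed by 2.53 ± 0.23 (adjusted p = 2.56e-05), and Cyp4f16, a cytochrome P450, by 2.76 ± 0.31 (adjusted p = 0.000176). Ap1s3, a clathrin adaptor subunit, differed by 2.96 ± 0.46, Chd4, the ATPase of the NuRD chromatin complex, by 3.10 ± 0.66, Colgalt1, a collagen galactosyltransferase, by 2.68 ± 0.53, and Cep290, a protein of the primary cilium, by 2.44 ± 0.43. The calls of Chd4 (adjusted p from 0.08 to 0.22) and Colgalt1 (from 0.059 to 0.22) were lost without any 1 of the 4 arrays. Single arrays also ended the calls of Ap1s3 (without replicate 1 of the NOD arrays, adjusted p = 0.0564) and Cep290 (without either NOD array or B6 MZ replicate 2, adjusted p up to 0.111). Each of these 9 genes was also called in the other subsets, in the same direction.

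Lower in NOD beside the genes above were several enzymes and regulators. Cyp51, a demethylase of cholesterol synthesis, was 1.58 and 1.75 in B6 MZ and -1.36 and -1.26 in NOD (-2.98 ± 0.55, adjusted p = 0.0109). Sqle, the squalene epoxidase of the same pathway, was -0.06 and 0.60 against -1.38 and -1.04 (-1.49 ± 0.30, adjusted p = 0.0185). It was the only called gene of the 14 measured lipid synthesis genes with the probe sets used, where 1.54% of all genes were called. That list did not hold Cyp51. Scd2, a fatty acid desaturase, differed by 0.11 in the probe set used and by 0.20 and 6.05 in its others. The last was -2.20 and -2.15 in B6 MZ and 4.05 and 3.70 in NOD, so that difference depends on the probe set. Phgdh, the first enzyme of serine synthesis, had 1.25 and 2.02 against -3.62 and -2.99 (-4.94 ± 0.75, adjusted p = 0.0031). The mean over its 4 probe sets was -1.05 and was not called, so the strain difference depends on the probe set. Gmnn, which encodes geminin, an inhibitor of DNA replication licensing, was 1.93 and 2.03 against -0.47 and -0.52 (-2.48 ± 0.42). Map7, a microtubule-associated protein, differed by -2.67 ± 0.38, Spata5l1, an ATPase, by -2.61 ± 0.42, Rcn2, a calcium-binding protein of the endoplasmic reticulum, by -2.35 ± 0.44, and Kcnn4, a calcium-activated potassium channel, by -2.33 ± 0.49. Leaving out single arrays ended the calls of Cyp51, Sqle, Phgdh, Gmnn, Spata5l1, Rcn2 and Kcnn4 in at least 1 case, but not that of Map7.

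Apoe was lower in NOD by a large amount and stood beside the macrophage transcripts. It encodes a lipid carrier that macrophages make in quantity. It was 1.55 and 3.59 in B6 MZ and -1.97 and -1.88 in NOD (-4.50 ± 0.71, adjusted p = 0.00395), with -0.74 between the strains in the other subsets. Both B6 MZ arrays were above both NOD arrays, and the myeloid sums of the 2 B6 MZ arrays were -2.88 and 20.2. The part of the myeloid markers in this difference was not tested. Without B6 MZ replicate 2 the difference was -3.48 (adjusted p = 0.0641), and without replicate 1 of the NOD arrays it was -4.45 (adjusted p = 0.055). The test of the difference between the strain differences gave -3.76 ± 0.78 (adjusted p = 0.168). In RNA from bulk samples, fewer cells of a type and less RNA per cell cannot be told apart.

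Of 29 B lineage transcription factors, 3 were called higher in NOD, beside 1% of all genes, and 0 lower, beside 0.539%. Irf8, which guides B cell and myeloid development, was -1.16 and -1.26 in B6 MZ and 0.18 and 0.22 in NOD (1.41 ± 0.24, adjusted p = 0.00629). Ikzf3, which encodes Aiolos, differed by 3.0 ± 0.52 and Zbtb7a, a transcriptional repressor, by 2.49 ± 0.40. With the mean of all their probe sets the values were 0.93 and 0.50, and neither was called. Irak1, the kinase below Toll-like receptors, was the only gene called among 20 tested members of its list, where 1.54% of all genes were. It had -0.58 and -1.87 against 0.81 and 0.61 (1.94 ± 0.37), but averaging its 4 probe sets gave 0.69, not called. The migration regulator Dock2 was 2.54 and 2.41 against -0.47 and -0.80 (-3.11 ± 0.69), while averaging its 3 probe sets gave -0.90, with no call. Each of these 5 calls was lost without at least 1 of the 4 arrays. All 5 genes were also called between the strains in the other subsets, in the same direction. Of the 29 transcription factors 9 were called higher there, beside 7.38% of all genes, and 2 lower, beside 6.97%.

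In the list of MHC class II and costimulation genes 2 of 18 were called, where 1.54% of all genes were. Cd86, a ligand of CD28, was 1.78 and 1.55 in B6 MZ and 0.46 and 0.61 in NOD (-1.13 ± 0.25, adjusted p = 0.0317). It was high within its own strain in both groups, by 1.39 in B6 and by 0.96 in NOD. H2-Ob, a subunit of the peptide loading modulator DO, was -0.41 and -0.44 against 0.38 and 0.21 (0.72 ± 0.17, adjusted p = 0.0433). Both calls were lost without any 1 of the 4 arrays. H2-Aa gave from -3.10 to 2.40 over its 4 probe sets and allows no statement between these strains.

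Among 22 immediate early genes 1 was called, where 1.54% of all genes were. Nr4a3, an orphan nuclear receptor, was 3.48 and 1.97 in B6 MZ and -0.24 and 0.04 in NOD (-2.82 ± 0.57, adjusted p = 0.0187). Its other probe sets gave -0.34 and -0.44, so the size depends on the probe set. The call of Nr4a3 was lost without B6 MZ replicate 1 (-2.07) and without either NOD array. The list as a whole differed between arrays of a group. Fos was 0.22 and -0.93 in B6 MZ and -0.14 and -5.06 in NOD, and the sum over the list was 16.1 and -14.5 against 5.48 and -40.6, with wide spread within each group. The heat shock genes Hspa1a (1.33 and -2.02 against -3.91 and -3.92) and Hspa1b (0.61 and -1.93 against -5.30 and -3.28) were lower in both NOD arrays. Neither was called (adjusted p = 0.0983 and 0.111). Both were called with a crossed block (adjusted p = 0.019 and 0.0248). Hspa1b was also called with the mean of all its probe sets (-3.79, adjusted p = 0.0419). Of the 9 serine and one-carbon enzymes Mthfd1, which interconverts folates, was called higher (1.52 ± 0.34, adjusted p = 0.0339), a call lost without B6 MZ replicate 1 (1.10) and without either NOD array.

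None of the 22 tested B cell receptor signalling genes was called, nor any of 12 inhibitory coreceptors, 19 genes of BAFF, NF-kB and survival, 32 cell cycle genes, 20 cytokine receptors, 9 RGS regulators, 14 cathepsin and antigen processing genes, 10 SLAM family genes or 12 heat shock chaperones. Over all genes 1.54% were called. Cd79a, a signalling chain of the B cell receptor, was -2.54 and -3.08 in B6 MZ and -0.28 and 0.45 in NOD (2.89 ± 0.96, adjusted p = 0.221, and 0.00412 with a crossed block). Cd22, an inhibitory lectin, was -0.78 and -0.41 against 1.19 and 1.01 (1.69 ± 0.44, adjusted p = 0.0795, and 0.0159 with a replicate block). The arrays of the groups did not overlap for either gene, which was so for 43.6% of all genes. With a replicate block, some members of these lists were called, namely Cdkn1b (2.29, adjusted p = 0.0127) and Ccnd1 (1.04, adjusted p = 0.0309) of the cell cycle, the cytokine receptor Il6st (1.13, adjusted p = 0.0471), and Cd244a (1.85, adjusted p = 0.024) and Slamf7 (-0.96, adjusted p = 0.02) of the SLAM family. Some of these values depend on the probe set. The other probe sets of Ccnd1 gave -0.46 and -0.98, and that of Cdkn1b gave -0.21. For Il6st the mean over its 4 probe sets was 0.09. The other probe set of Cd244a kept the direction, at 0.88. With a crossed block the RGS regulators Rgs1 (-3.0, adjusted p = 0.0171) and Rgs3 (0.61, adjusted p = 0.0403) were called. Cst3, of the antigen processing list, was called higher in NOD with that block (adjusted p = 0.000701) and with the 5′ control as covariate (adjusted p = 0.0365). The coreceptor Cd300a was called with the same covariate (-0.92, adjusted p = 0.0281). Of 19 tested candidate genes of NOD diabetes loci 0 were called with the probe sets used. Of these, Sp110 differed by -1.39 (adjusted p = 0.476, and 0.0018 with a crossed block). Its other probe sets went the other way, at 2.04 and 1.88, so Sp110 allows no statement on direction. Nnt, which many B6 lines carry in a deleted form, was -1.23 and 0.03 against 0.50 and 0.46 (1.07 ± 0.42, adjusted p = 0.344, and 0.0464 with a crossed block).

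Whether the strain difference itself was of another size in the pair than in the other subsets was tested for each gene. It was for 15 genes (0.0824%), of which 11 (0.0605%) were more positive in the pair and 4 (0.022%) more negative, and 708 had an unadjusted p under 0.05. Without B6 MZ replicate 1 there were 39 such genes, without replicate 2 there were 6, and without either of the NOD arrays labelled T1 there were 5. Of the 15, 12 were also called in the pair. Of the 11, 10 were called higher in the NOD arrays labelled T1 than in the other NOD groups.

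Pxdn, a peroxidase that crosslinks collagen of basement membranes, was 0.08 and 0.26 in B6 MZ and 2.39 and 2.73 in the NOD arrays labelled T1. The other 10 B6 arrays lay between -0.31 and 0.02 and the other 10 NOD arrays between -0.24 and 0.63. The strain difference was 2.39 ± 0.15 in the pair and 0.22 ± 0.07 in the other subsets, and these differed by 2.17 ± 0.17 (adjusted p = 4.25e-05). Eml1, a microtubule-binding protein, was -0.03 and -0.02 against 2.02 and 2.30, with all 20 other arrays between -0.25 and 0.30, and the strain differences differed by 2.05 ± 0.17 (adjusted p = 8.08e-05). The calls of Pxdn and Eml1 were kept under each of the 33 alternatives run for them. Cracdl, a gene of little known function, was 0.66 and 0.35 against 2.67 and 2.24 (1.91 ± 0.28, adjusted p = 0.0145). Sfmbt2, a Polycomb group protein, was -0.02 and -0.13 against 1.65 and 1.38 (1.38 ± 0.18, adjusted p = 0.00711). Erich2 (1.18 ± 0.17) and Fam149a (0.90 ± 0.15) showed the same order with smaller values.

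The calls of Cracdl, Sfmbt2 and Erich2 were lost in 3 or 4 of their 33 alternatives and that of Fam149a in 27. The lost cases of the first 3 were the filter on low variability and the removal of single arrays of the pair.

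**Figure D5:**
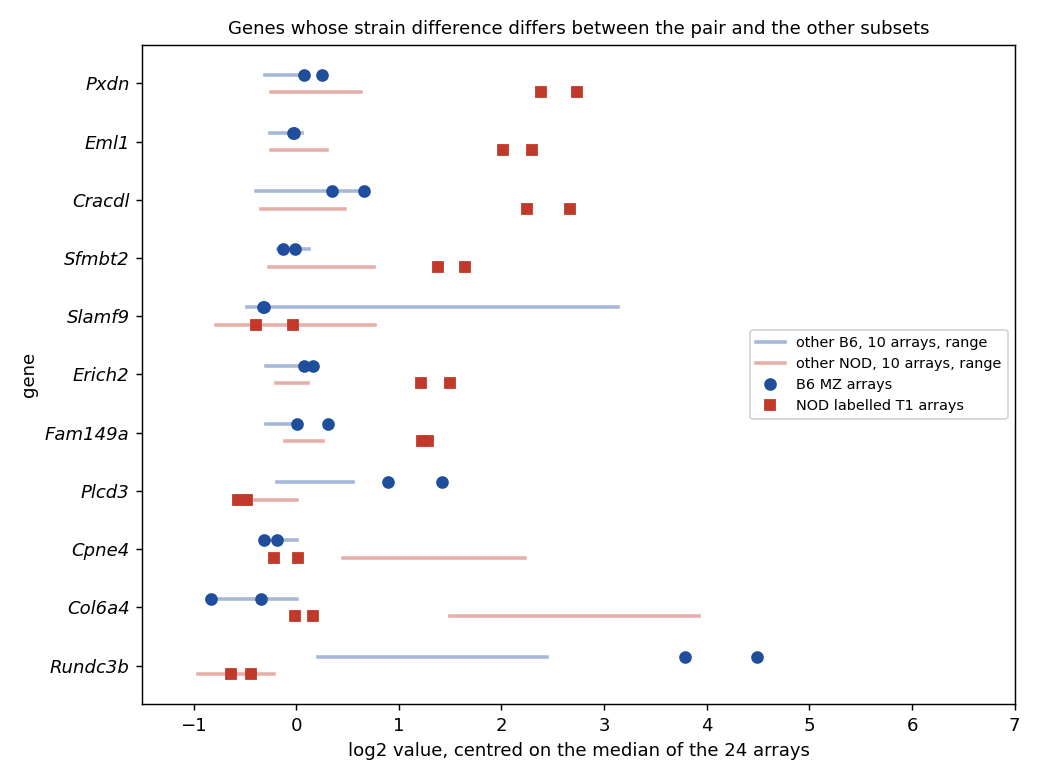
Symbols are the single arrays of the pair and bars the range of the other 10 arrays of each strain, on the centred log2 scale. The upper genes other than Slamf9 have both NOD arrays labelled T1 above every other array, Rundc3b and Plcd3 have both B6 MZ arrays above every other array, and Col6a4, Cpne4 and Slamf9 have their strain difference outside the pair.

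Rundc3b was the largest of the 4 genes that were more negative in the pair. It encodes a RUN domain protein. Its values were 4.49 and 3.78 in B6 MZ and -0.44 and -0.64 in the NOD arrays labelled T1, while other B6 arrays ran from 0.21 to 2.44 and other NOD arrays from -0.96 to -0.21. All 12 NOD arrays were thus below all 12 B6 arrays. The strain difference was -4.68 ± 0.36 in the pair and -1.5 ± 0.16 in the other subsets, and they differed by -3.18 ± 0.40 (adjusted p = 0.00632). B6 MZ stood 3.18 above the other B6 groups, and the NOD arrays labelled T1 stood 0.01 above the other NOD groups. Without replicate 2 of the NOD arrays labelled T1 the difference of strain differences was -3.08 (adjusted p = 0.0553). Plcd3, a phospholipase C, was 1.42 and 0.89 against -0.48 and -0.57 (-1.33 ± 0.22 for the difference of strain differences, adjusted p = 0.0347), a call lost in 20 of 33 alternatives.

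Col6a4, Cpne4 and Slamf9 were called between the strains in the other subsets and not in the pair. Col6a4, a collagen VI chain, was -0.35 and -0.83 in B6 MZ and -0.01 and 0.17 in the NOD arrays labelled T1, while the other NOD arrays ran from 1.5 to 3.92. Its strain difference was 0.67 ± 0.31 in the pair and 2.96 ± 0.14 elsewhere (difference -2.29 ± 0.34, adjusted p = 0.0145). Cpne4, a calcium-dependent membrane-binding protein, was -0.19 and -0.32 against 0.02 and -0.21, with other NOD arrays from 0.46 to 2.23 (difference -1.37 ± 0.19, adjusted p = 0.0122). For both genes, the NOD arrays labelled T1 lay below all other NOD arrays. Slamf9, a receptor of the SLAM family, was -0.32 and -0.32 against -0.40 and -0.03, whereas other B6 arrays reached 3.14 (difference 1.34 ± 0.23, adjusted p = 0.0481). The Slamf9 call was lost in 20 of 33 alternatives and that of Col6a4 in 5, with the mean of its 2 probe sets among them (-1.33, adjusted p = 0.135).

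Rundc3b lies in a run of neighbouring genes that differed in the pair. In the gene order of the RefSeq table (assembly GRCm38.p6) the tested genes Rundc3b, Abcb1a, Abcb1b, Abcb4, Crot and Tmem243 follow each other, and all but Crot were called, 4 lower and 1 higher in NOD. Abcb1a, which encodes the drug efflux pump P-glycoprotein, was 3.85 and 3.10 in B6 MZ and 1.09 and 0.86 in NOD (-2.50 ± 0.37, adjusted p = 0.00228). Its strain difference in the other subsets was -0.26, and the difference between the 2 was -2.24 ± 0.40 (adjusted p = 0.0654). Abcb1a stood 3.30 above the other groups in B6 MZ and 1.06 above them in the NOD arrays labelled T1. Abcb1b, its close copy, was 1.84 and 1.41 against -0.48 and -0.46 (-2.09 ± 0.38, adjusted p = 0.00936). In the other subsets Abcb1b was also called lower in NOD, by -1.015 (adjusted p = 0.000747). The other probe set of Abcb1b gave -0.16, and that of Abcb1a gave -2.03. Since these 2 genes are near-identical in parts, their probe sets may share signal.

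Abcb4, a phospholipid transporter, went the other way, with -1.36 and -1.0 in B6 MZ and 1.97 and 1.70 in NOD (3.02 ± 0.23, adjusted p = 3.42e-06). It was also higher in the other NOD subsets, by 2.56. Tmem243 was 0.44 and 0.42 against -2.01 and -1.63 (-2.25 ± 0.36, adjusted p = 0.00421). In the other subsets its strain difference was -3.0, also called. Crot, a carnitine acyltransferase, was 0.59 and 0.42 against 0.65 and 0.42. Of the 280 called genes, 9.29% had a called gene next to them, as against 2.91% of genes not called. When called genes up to 3 places apart in the order of tested genes were joined, there were 23 runs with 51 called genes in all. No run held more called genes than this one, which held 5.

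The promoters of Rundc3b, Abcb1a and Abcb1b are shown because these 3 adjacent genes were lower in NOD together with the probe sets used. Tmem243 of the same run was also lower, and its promoter is not shown. They come from RefSeq (GRCm38.p6, 250 bases before to 50 after the start), and each reads in the direction of its gene. That assembly is of B6, so NOD bases are not shown. Capitals mark TGGGAA or its reverse complement TTCCCA, the core bound by the Notch partner RBPJ, searched on both strands.
Rundc3b, chr5:8622903-8623202, minus strand: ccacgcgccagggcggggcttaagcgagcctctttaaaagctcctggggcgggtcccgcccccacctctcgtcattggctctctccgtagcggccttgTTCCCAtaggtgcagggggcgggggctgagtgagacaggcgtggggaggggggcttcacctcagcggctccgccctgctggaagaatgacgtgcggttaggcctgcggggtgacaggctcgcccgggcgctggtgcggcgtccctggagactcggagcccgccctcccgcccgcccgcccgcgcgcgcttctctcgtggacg
Abcb1a, chr5:8566841-8567140, plus strand: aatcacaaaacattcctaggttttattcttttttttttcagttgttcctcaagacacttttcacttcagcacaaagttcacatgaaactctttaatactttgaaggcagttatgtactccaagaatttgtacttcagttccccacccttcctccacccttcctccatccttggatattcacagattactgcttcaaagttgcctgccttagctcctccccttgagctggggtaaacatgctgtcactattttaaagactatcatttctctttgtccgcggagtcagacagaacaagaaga
Abcb1b, chr5:8797897-8798196, plus strand: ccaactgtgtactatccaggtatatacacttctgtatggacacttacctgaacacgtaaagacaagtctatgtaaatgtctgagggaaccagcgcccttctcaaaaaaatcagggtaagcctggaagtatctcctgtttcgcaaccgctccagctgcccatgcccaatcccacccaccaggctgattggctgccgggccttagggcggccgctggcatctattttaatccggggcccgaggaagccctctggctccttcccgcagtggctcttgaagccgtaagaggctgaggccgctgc
The Rundc3b window holds 1 match, which begins at position -152 from the start site, and the other windows hold none. Of all 32851 promoters 25.6% hold the motif. Of the 105 genes high within both strains that have a promoter in the table, 32 (30.5%) hold it, as against 28.3% of all genes. The share is near the background, and a match describes letters only.

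The probe sets of a gene did not always give the same strain difference. Of the 280 called genes 106 had 1 probe set and 174 had several. For 77 of the 174 the mean of all probe sets kept at least 0.5 of the difference, and for 97 it kept less. When all probe sets of a gene were averaged, 201 of the 280 were called in the same direction. The named genes of the pair were taken from those that kept at least 0.5 or had 1 probe set, and list members were not. Ctse, which encodes cathepsin E, had -2.03 in the probe set used (not called) and 5.12 in the other.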

How the data were processed

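RNA of sorted cells was amplified in 2 rounds primed from the poly(A) tail and hybridised to Affymetrix mouse arrays, per the labels. RMA is the tool in the submitters' processing notes, and the deposited values were taken as log2, since neither its version nor the log base is stated in the sources used here. No probe set had a median further than 5e-07 from 0 over the 24 arrays, so values had been centred per probe set. Levels, signal over background and a filter on dim genes cannot be had.

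The platform annotation gave 1 gene to 34945 of the 45101 probe sets, several to 932 and none to 9160, and 64 were controls. Of the 34945, 34741 matched the RefSeq gene table (GRCm38.p6). Each of 18193 genes was given by its probe set with the largest standard deviation within strains, because a choice over all arrays favours probe sets that differ between strains. The number of arrays (2 per group) limits precision.

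One mean for each of 12 groups was fitted to all 24 arrays with limma 3.58.1 in R 4.3.3, followed by contrasts and eBayes. Benjamini-Hochberg adjustment ran over all genes, and an adjusted p under 0.05 was called. Errors with differences are standard errors. The fit was tested on simulated data. Figures were made with matplotlib 3.10.9 in Python 3.11.15.

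The pair, its members and the 30 gene lists were chosen with earlier results of these data known. The genes named were the 12 largest called differences each way in the pair, the 8 largest each way in the difference of strain differences and the 6 largest each way in B6 MZ against other B6. Arms had to be apart, and the mean of a gene's probe sets had to keep 0.5 of the difference. Clone and RIKEN names were left out. From each list up to 4 called members, or 2 uncalled ones, were added, and the markers, Ighm, Cd24a, Ptprc and Nnt always. Myof, Cd9, Cd1d1, Dtx1, Hes1, Notch2, Fos, Cmpk2, Usp18, Trim12c, Vcam1, C1qb, H2-Aa, Scd2, Abcb1b, Crot and Tmem243 are named outside this rule, after their values were seen.

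Replicate numbers stand for experiments with separate pools of mice, so they pair arrays only within a strain. Deviations of the NOD arrays labelled T1 correlated at 0.19 to 0.52 with same-numbered NOD arrays. Those of B6 MZ correlated at 0.75 with B6 FO and at -0.53 to -0.39 with the other B6 groups, so the B6 numbers may be crossed. The 5′ actin control divides the B6 arrays the same way, being low in replicate 1 of FO and MZ and in replicate 2 of the other B6 groups, and the 2 cannot be told apart. Alternatives were another probe set per gene, array medians, a filter on low variability, robust variance, replicate and pool blocks, the 5′ control as covariate, the 4 arrays alone and leaving out each array.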

Additional observations from a re-analysis of the deposited data

Results flagged for a closer look

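The strain difference in the pair differed from that in the other subsets for 15 genes by a test of the difference itself (limma). The named ones, with the difference of strain differences on the log2 scale, were Pxdn (2.17), Eml1 (2.05), Cracdl (1.91), Sfmbt2 (1.38), Slamf9 (1.34), Erich2 (1.18) and Fam149a (0.90) on the positive side. On the negative side were Rundc3b (-3.18), Col6a4 (-2.29), Cpne4 (-1.37) and Plcd3 (-1.33). Groups of 2 arrays are too small to look for single outlying arrays.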

How the results depend on the processing

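The 280 genes called in the pair became 567 with the probe set of largest spread over all arrays, 1300 with the 5′ control as covariate and 0 with the 4 arrays alone (limma, 2242 at an unadjusted p under 0.05). Leaving out single arrays gave 75 (without replicate 1 of the NOD arrays labelled T1), 108 (without replicate 2), 129 (without B6 MZ replicate 2) and 326 (without B6 MZ replicate 1). The other subsets gave 4767 with the 5′ covariate (2051 higher, 2716 lower) in place of 2610 (1342 and 1268), 1680 with the pool as a random block, and 2065 to 2754 without single arrays. The difference of strain differences gave 4 with the filter on low variability in place of 15, 39 without B6 MZ replicate 1, 6 without replicate 2, 5 without either NOD array labelled T1, and 5 to 39 over all single arrays. B6 MZ against other B6 gave 1583 with the 5′ covariate (664 higher, 919 lower) in place of 348 (205 and 143), and 123 to 455 without single arrays, the lowest without B6 MZ replicate 2. The NOD arrays labelled T1 against other NOD gave 954 with the 5′ covariate in place of 455, and 138 to 442 without single arrays, the lowest without replicate 1 (167 without replicate 2). The number of B6 groups with fewer called genes than B6 MZ was 0 under every alternative but 1. Without B6 T2MZ replicate 1 it was 1. This count was not planned beforehand under any setting, the main one included. Ctse reversed to 5.12 with the probe set of largest spread over all arrays, which is another probe set. The cause of the other changes was not tested.

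A replicate block within strains gave 582 genes in the pair and 654 in B6 MZ against other B6. With the B6 FO and MZ numbers crossed, the replicate block gave 1698 in the pair, 5243 in the other subsets, 35 for the difference of strain differences, 1436 for B6 MZ and 1222 for the NOD arrays labelled T1. A block across strains would pair unrelated pools, so the block was set within each strain. No filter on dim genes could be run on centred values.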
